A study of Mus musculus with 14 samples.

Results

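The secretory genes of the goblet cell were followed in isolated mouse colon epithelium. They were the 10 genes Muc2, Fcgbp, Zg16, Tff3, Spink4, Sycn, Agr2, Bcas1, Spdef and Atoh1, taken by symbol from a table of 37680 genes, and all 10 were among the 15127 genes with enough counts to be tested. RNA-seq libraries came from 4 wildtype mice (WT) and 4 mice labelled as Smad4 knockout (KO) on water, and from 3 WT and 3 KO mice given 2.5% dextran sulfate sodium (DSS), which damages the lining of the colon, in drinking water for 3 d. All mice were adult, age-matched and of a C57/BL6 enriched background. In the KO mice, Villin-CreERT2, a Cre driven by the villin promoter and switched on by tamoxifen, removes the floxed Smad4 gene throughout the intestinal epithelium rather than in goblet cells alone. Crypt epithelium was separated from the mesenchyme with EDTA, so that each library mixes goblet cells with every other epithelial cell type.

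Goblet cells make the mucus that keeps bacteria away from the colonic epithelium. MUC2 is folded in the endoplasmic reticulum, heavily glycosylated in the Golgi, stored in granules and released. FCGBP, ZG16, CLCA1 and TFF3 are secreted into the same mucus. The fate of the goblet cell is set by ATOH1, the basic helix-loop-helix factor of all secretory cells, and its maturation by SPDEF, an ETS factor. SMAD4 is the common partner of the receptor-regulated SMADs, through which TGF-β and BMP signals reach the nucleus.

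Promoter sequences are shown for Fcgbp and Atoh1, which were lower in the KO libraries on water once the library in question below was left out, and for Muc2 and Agr2, which were not. Each is the 250 bases before the RefSeq start, 5′ to 3′ on the gene's strand, in build GRCm38.p6 (the counts were made on mm9). Capitals mark CAGCTG, an E-box of the class bound by basic helix-loop-helix factors, and CAGAC or its reverse complement GTCTG, the short core bound by SMAD proteins. The regions are chr7:28070986-28071235, chr6:64728875-64729124, chr7:141690090-141690339 and chr12:35992675-35992924, all on the + strand.
Fcgbp: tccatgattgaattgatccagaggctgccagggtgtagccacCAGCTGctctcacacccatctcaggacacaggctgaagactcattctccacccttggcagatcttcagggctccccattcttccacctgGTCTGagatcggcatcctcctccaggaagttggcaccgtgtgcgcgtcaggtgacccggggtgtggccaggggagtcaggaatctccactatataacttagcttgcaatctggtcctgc
Atoh1: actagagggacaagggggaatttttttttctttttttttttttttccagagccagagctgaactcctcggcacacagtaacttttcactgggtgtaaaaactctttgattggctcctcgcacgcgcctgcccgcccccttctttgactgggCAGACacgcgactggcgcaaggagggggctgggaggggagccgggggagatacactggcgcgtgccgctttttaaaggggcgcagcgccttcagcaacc
Muc2: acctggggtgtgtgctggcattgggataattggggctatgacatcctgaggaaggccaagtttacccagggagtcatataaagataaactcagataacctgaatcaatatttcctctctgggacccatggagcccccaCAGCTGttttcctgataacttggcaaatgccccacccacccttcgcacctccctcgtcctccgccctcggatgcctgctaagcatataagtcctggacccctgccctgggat
Agr2: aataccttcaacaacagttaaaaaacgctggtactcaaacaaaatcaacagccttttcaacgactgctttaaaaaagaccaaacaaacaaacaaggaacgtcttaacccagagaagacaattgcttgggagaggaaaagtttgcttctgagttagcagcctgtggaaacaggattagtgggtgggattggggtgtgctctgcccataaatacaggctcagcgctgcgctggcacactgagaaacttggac
The Fcgbp window held 1 CAGCTG, from 208 to 203 bases before the start, and 1 GTCTG, from 119 to 115 bases before it. Muc2 held 1 CAGCTG, from 112 to 107 bases before the start, and no CAGAC on either strand. Atoh1 held 1 CAGAC, from 99 to 95 bases before the start, and Agr2 held neither. Of the other members matched, Spdef, which neither the 14- nor the 13-library model called, held 1 GTCTG, from 83 to 79 bases before the start, and Sycn held neither. Of 32851 promoters of the same length, 13% held CAGCTG and 42.2% held CAGAC on either strand. A match of letters is a description and not a site. Sequences of 6 of the 10 genes were matched in the table used.

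Smad4 itself was examined first. It was at 122, 159, 135 and 118 normalised CPM (counts scaled to the library's size and edgeR's TMM factors) in WT on water, and at 170, 182 and 174 in WT after DSS. KO libraries had 37.0, 46.8 and 35.1 on water in replicates 2 to 4 and 43.9, 40.4 and 42.8 after DSS. The library labelled KO water replicate 1 had 158, within the WT range and against its label. On water the log2 fold change of Smad4 was -0.95 (edgeR adjusted p = 0.095) with that library and -1.75 (edgeR adjusted p = 3.9e-05) without it. That library was kept under its label in the model of all 14 libraries, and results are also given from a model of the other 13. The study's figure legends give 3 KO replicates on water and do not say which libraries these were. Total counts ran from 12882827 to 26087231 per library, and mitochondrial genes held 4.05% to 32.8% of them, with the 3 highest shares, 30.6%, 32.8% and 21.4%, in WT water replicates 3 and 4 and KO water replicate 4. The name prefix D was shared by 7 libraries, which after DSS covers 3 of 3 KO and 2 of 3 WT. Sums of 10 colonocyte markers did not overlap between genotypes, at 8099 to 8576 CPM in WT and 5068 to 7417 in KO on water and at 6454 to 7623 and 4667 to 5556 after DSS. Sums of 6 fibroblast markers were small, at 0.896 to 4.06 in WT and 2.98 to 24.8 CPM in KO on water. After DSS they were at 0.276 to 1.89 and 7.21 to 12.97 CPM. Only 4 of the 6 had enough counts to be tested, and Lum reached at most 1 count in any library. Col1a2 and Dcn were called higher in KO on water. Sums of 5 distal Hox genes, which mark position along the colon, were 358 to 615 CPM in WT on water. KO libraries on water had 555 in replicate 1, within the WT range, and 210 to 334 in replicates 2 to 4. After DSS the sums were 331 to 462 in WT and 342 to 346 in KO. Sums of 5 stem cell markers were 199 to 278 CPM in WT and 256 to 374 in KO on water. They did not overlap after DSS, at 174 to 239 and 286 to 298. Nor did sums of 5 tuft markers (32.4 to 37.6 in WT and 27.8 to 28.8 CPM in KO) and of 5 Paneth markers (6.81 to 6.94 and 10.8 to 23.2 CPM) overlap after DSS. Of the stem cell markers, Lgr5 and Smoc2 were called higher in KO on water and Smoc2 after DSS. The log2 fold changes of 2 of the 5 were below 0 in each of these comparisons. Without KO water replicate 1, 2 of the 5 were called higher and 2 lower on water, with log2 fold changes from -2.02 to 1.01. The part of these shifts in the results below was not tested.

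The 10 genes together held 1.62% ± 0.51 of all counts (SD, n = 4) in WT on water, 1.57% ± 0.074 (SD, n = 4) in KO on water, 1.70% ± 0.087 (SD, n = 3) in WT after DSS and 1.39% ± 0.054 (SD, n = 3) in KO after DSS. Per kilobase of merged exons, the level in WT on water was highest for Spink4, at 3111 ± 1033 CPM per kb (SD, n = 4), followed by Zg16 at 2102 ± 896, Muc2 at 1468 ± 721, Tff3 at 1188 ± 292 and Agr2 at 1102 ± 213. The intervals of mean ± SD of neighbours in this order overlapped among these 5. Sycn, at 321.0 ± 67.3, and Fcgbp, at 242 ± 65.9, came next, with overlapping intervals of mean ± SD. The regulators Spdef, at 96.4 ± 41.5, and Atoh1, at 51.3 ± 7.03, were lower again, and Bcas1 was lowest at 30.1 ± 4.21 CPM per kb. Muc2 also had the most reads of the 10, with 71233 to 380920 counts per library, and Atoh1 the lowest mean level, 87.8 CPM over the 14 libraries, with 1119 to 3186 counts. Lengths are those of GENCODE M1.

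**Figure D1:**
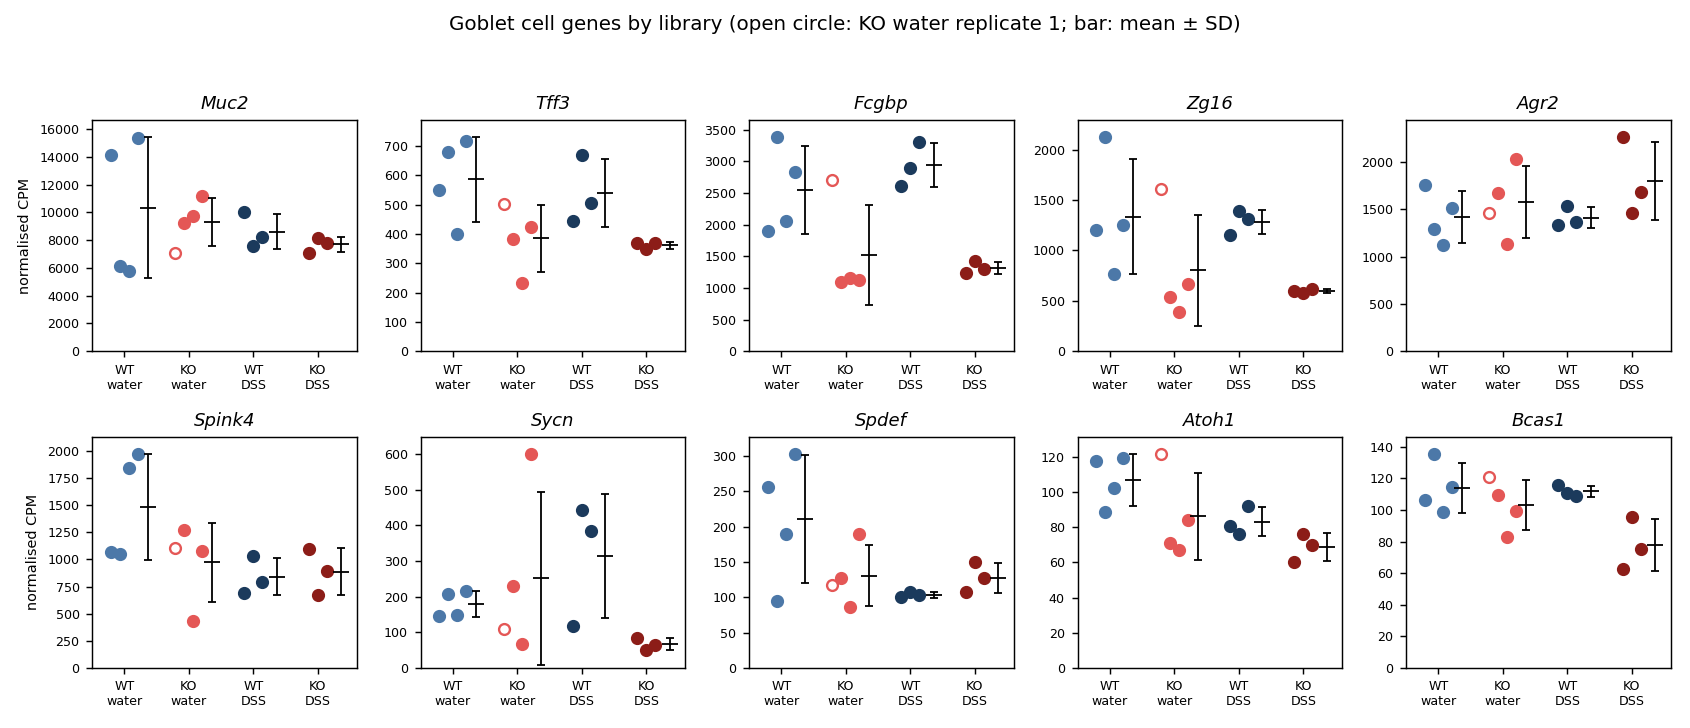
Normalised CPM of the 10 goblet cell genes in each library, by group (4, 4, 3 and 3 libraries). Points are libraries, the open circle is KO water replicate 1, and bars show the mean and SD of all libraries of the group. Fcgbp and Zg16 of KO after DSS lie below all WT libraries after DSS, while Muc2 spreads widest in WT on water.

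The first question was whether loss of Smad4 changed the goblet cell genes in uninjured epithelium. Fcgbp and Zg16 had the largest decreases of the members, and in edgeR these passed the threshold only with KO water replicate 1 left out. Over all 14 libraries the edgeR adjusted p was 0.089 for both Fcgbp and Tff3, and 0.19 for Zg16. Fcgbp (ENSMUSG00000047730, chr7:28856255-28905881 of mm9, + strand) encodes a large protein that binds to MUC2 in mucus. Its level was 1902, 3380, 2054 and 2836 CPM in WT, 2704 in KO replicate 1, and 1095, 1159 and 1129 in KO replicates 2, 3 and 4. The last 3 lay below every WT library, and replicate 1 lay among the WT libraries. Over all libraries the log2 fold change was -0.74 (SE, the standard error, 0.27, edgeR quasi-likelihood test, adjusted p = 0.089). Without replicate 1 it was -1.17 (SE 0.20, edgeR adjusted p = 0.010), that is 44.3% of the WT level.

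Zg16 (ENSMUSG00000049350, chr7:134193670-134195491 of mm9, - strand), a lectin that binds Gram-positive bacteria, had 1207, 2125, 763 and 1254 CPM in WT on water. KO replicate 1 had 1613, and KO replicates 2 to 4 had 541, 390 and 670. As for Fcgbp, the latter 3 were below every WT library. The log2 fold change was -0.73 (SE 0.36, edgeR adjusted p = 0.19) over all libraries and -1.32 (SE 0.28, edgeR adjusted p = 0.018) without replicate 1. Atoh1 (ENSMUSG00000073043, chr6:64679140-64681227 of mm9, + strand) was at 118, 88.5, 102 and 120 CPM in WT, at 122 in KO replicate 1 and at 71.2, 67.3 and 84.3 in KO replicates 2 to 4. Its fold change was smaller, at -0.31 (edgeR adjusted p = 0.24) and -0.53 without replicate 1 (edgeR adjusted p = 0.044).

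In the model of 14 libraries, edgeR called 0 of the 10 genes on water at an adjusted p of 0.05, where it called 8.44% of all tested genes (1276, but 4 without WT replicate 4, 16 without KO replicate 2 and 5 without KO replicate 3). At an unadjusted p below 0.05 it called 4436 genes. The model of 13 libraries called 3 of the 10 lower in KO, Fcgbp, Zg16 and Atoh1, beside 3.6% of all tested genes called lower. These 3 were also the members whose KO replicates 2 to 4 lay wholly below WT, as did 7.66% of all tested genes. DESeq2 on all 14 libraries called 2 of the 10 lower, Fcgbp and Tff3 (adjusted p = 0.029 and 0.040), beside 7.99% of all genes. In a model of only the 7 libraries compared, without KO replicate 1, the log2 fold changes of Fcgbp, Zg16 and Atoh1 were -1.17, -1.32 and -0.53, and their edgeR adjusted p was 0.14, 0.16 and 0.21. In bulk epithelium, fewer goblet cells and less RNA per goblet cell cannot be told apart.

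Muc2 (ENSMUSG00000025515, chr7:148876268-148940595 of mm9, + strand), the gel-forming mucin itself, did not share this pattern. It had 14097, 6124, 5800 and 15325 CPM in WT on water and 7098, 9211, 9716 and 11192 in KO. The KO libraries lay inside the WT range, with a log2 fold change of -0.15 (95% interval -0.76 to 0.46, edgeR adjusted p = 0.76) over all libraries and -0.04 (95% interval -0.70 to 0.62) without replicate 1. Agr2 (ENSMUSG00000020581, chr12:36719494-36730674 of mm9, + strand), the disulfide isomerase needed to fold MUC2, had 1758, 1297, 1121 and 1513 CPM in WT and 1465, 1671, 1137 and 2036 in KO. Its log2 fold change was 0.15 (95% interval -0.28 to 0.57, edgeR adjusted p = 0.65). Changes of up to about the bounds of these intervals could not be seen here.

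Tff3 (ENSMUSG00000024029, chr17:31262251-31266591 of mm9, - strand), a trefoil peptide that aids epithelial repair, had 550, 678, 398 and 716 CPM in WT and 502, 383, 232 and 423 in KO on water. The groups overlapped, with a log2 fold change of -0.61 (SE 0.22, edgeR adjusted p = 0.089) and of -0.76 (edgeR adjusted p = 0.058) without replicate 1. Spdef (ENSMUSG00000024215, chr17:27851297-27865896 of mm9, - strand) had 257, 94.3, 189 and 303 CPM in WT and 117, 127, 86.8 and 190 in KO. It was -0.70 on the log2 scale (edgeR adjusted p = 0.12) over all libraries, and past the threshold only when WT replicate 2 (-0.94, edgeR adjusted p = 0.031) or KO replicate 4 (-0.92, edgeR adjusted p = 0.026) was left out. Spink4 (ENSMUSG00000028415, chr4:40867085-40878428 of mm9, + strand), which encodes a Kazal-type peptide of goblet cells, ran from 1052 to 1974 CPM in WT and from 435 to 1268 in KO, at a log2 fold change of -0.61 (edgeR adjusted p = 0.19). Bcas1 (ENSMUSG00000013523, chr2:170172491-170253345 of mm9, - strand) ran from 98.7 to 136 and from 83.1 to 121 CPM, at -0.14 (edgeR adjusted p = 0.55). Sycn (ENSMUSG00000084174, chr7:29325904-29327229 of mm9, + strand), a protein of secretory granules known best from the pancreas, had 144, 208, 149 and 215 CPM in WT and 108, 230, 67.7 and 602 in KO. Its log2 fold change of 0.50 (edgeR adjusted p = 0.55) turned to -0.39 when KO replicate 4, the library at 602, was left out.

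**Figure D2:**
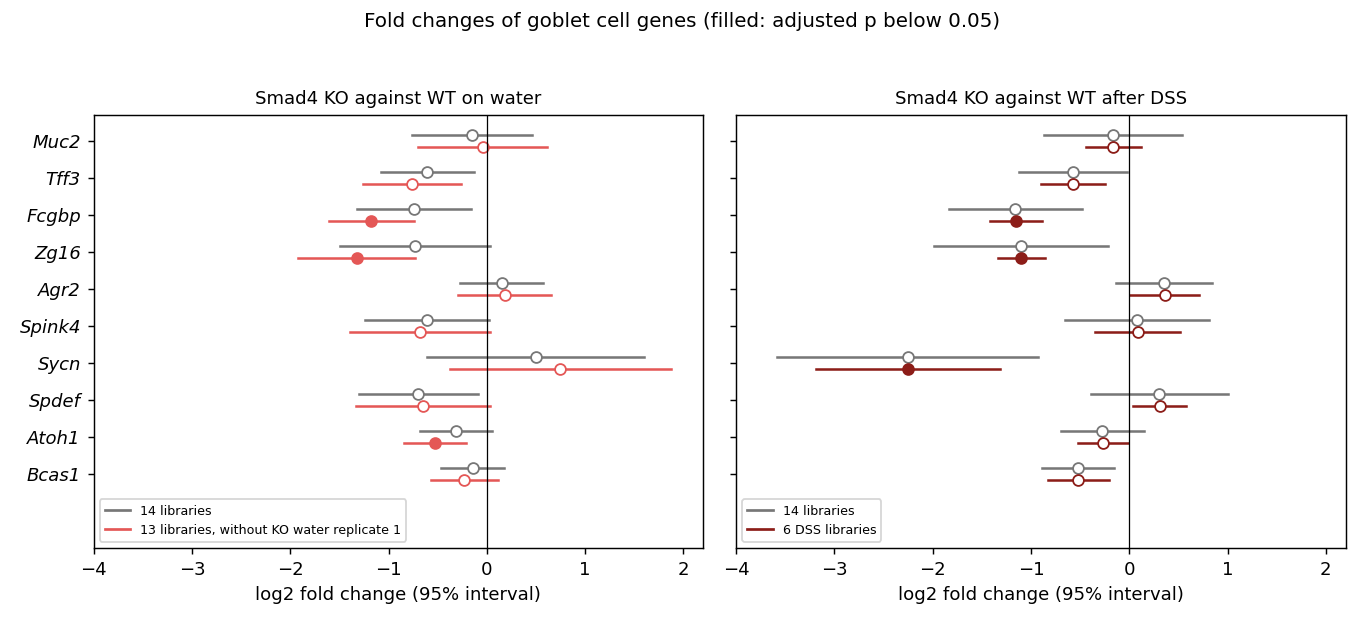
Log2 fold change of KO against WT for each gene (points, with 95% intervals), on water from 14 libraries and from 13 without KO water replicate 1 (left) and after DSS from 14 libraries and from the 6 DSS libraries alone (right). Filled points have an edgeR adjusted p below 0.05. Fcgbp is -1.17 on water in the 13 libraries and -1.15 after DSS in the 6, while the intervals of Muc2 span 0 in every model.

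The second question was whether the genotypes differed after 3 d of DSS. Every DSS library had Smad4 at the level its label implies. Fcgbp had 2610, 2896 and 3304 CPM in WT and 1231, 1420 and 1299 in KO. Zg16 had 1157, 1390 and 1310 in WT and 599, 578 and 621 in KO. For both genes the highest KO library was well below the lowest WT library. The log2 fold change was -1.16 (SE 0.32, edgeR adjusted p = 0.53) for Fcgbp and -1.10 (SE 0.42, edgeR adjusted p = 0.93) for Zg16 in the model of 14 libraries, which takes its spread from all 4 groups. In a model of the 6 DSS libraries alone it was -1.15 (SE 0.12, edgeR adjusted p = 0.0041) and -1.10 (SE 0.11, edgeR adjusted p = 0.0038).

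Sycn had 117, 444 and 384 CPM in WT after DSS and 84.9, 50.2 and 63.3 in KO. The groups did not overlap, though WT replicate 1 was far nearer to KO than the other WT libraries were. Its log2 fold change was -2.25 (SE 0.63, edgeR adjusted p = 0.54) in the model of 14 libraries and -2.25 in that of 6 (SE 0.42, edgeR adjusted p = 0.048). Of 11 exocrine pancreas markers, 9 reached at most 33 counts in any library and only Cela1 and Ctrl passed the filter. Cela1 had 1826 to 5382 counts per library and Ctrl 20 to 87. Tff3, at 445, 667 and 504 CPM in WT and 367, 347 and 370 in KO, and Bcas1, at 116, 111 and 109 and at 62.7, 95.6 and 75.3, did not overlap between genotypes either. Their log2 fold changes were -0.58 (edgeR adjusted p = 0.999) and -0.52 (edgeR adjusted p = 0.74) in the 14 libraries, and -0.57 (edgeR adjusted p = 0.13) and -0.52 (edgeR adjusted p = 0.14) in the 6.

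In all, 5 of the 10 genes lay wholly lower in KO after DSS, where 11.4% of all tested genes did. In the model of 14 libraries edgeR called 0 of the 10, beside 0.0132% of all genes (2 genes at the adjusted threshold and 670 at an unadjusted p below 0.05), and in the model of 13 libraries again 0, beside 0.0531%, with Fcgbp at an adjusted p of 0.091. The model of the 6 DSS libraries called 3 lower, Fcgbp, Zg16 and Sycn, beside 0.416% of all genes called lower. DESeq2 over 14 libraries called Fcgbp alone (adjusted p = 0.048), beside 0.178% of genes called lower. In a model of the 7 libraries with prefix D, 5 after DSS and 2 of WT on water, which was added after the data were seen, Fcgbp was at -1.07, Zg16 at -1.09 and Sycn at -2.08 on the log2 scale, with edgeR adjusted p of 0.11, 0.10 and 0.12.

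The libraries of the other members overlapped between the genotypes after DSS, and none of these members was called in the 6 libraries. Muc2 had 10035, 7561 and 8245 CPM in WT and 7062, 8187 and 7813 in KO, a log2 fold change of -0.16 (95% interval -0.44 to 0.12, edgeR adjusted p = 0.58, 6 libraries). Agr2 had 1332, 1535 and 1363 in WT and 2263, 1464 and 1687 in KO, at 0.36 (95% interval 0.005 to 0.71, edgeR adjusted p = 0.32, 6 libraries). Spink4 had 694, 1029 and 795 in WT and 1099, 671 and 894 in KO. Spdef had 99.9, 107 and 103 in WT and 107, 149 and 127 in KO, and Atoh1 had 80.9, 76.2 and 92.3 in WT and 60.2, 76.3 and 69.8 in KO. In the 6 libraries the log2 fold change of Spink4 was 0.08 (95% interval -0.35 to 0.52, edgeR adjusted p = 0.87). That of Spdef was 0.31 (95% interval 0.04 to 0.58, edgeR adjusted p = 0.27). For Atoh1 it was -0.27 (95% interval -0.53 to -0.02, edgeR adjusted p = 0.30). The intervals, unlike the adjusted p, do not allow for the number of genes tested.

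The mix of secreted products can be read from counts within a library, which does not depend on scaling between libraries. For every 100 Muc2 counts, Fcgbp had 26.0 to 40.1 in WT and 16.6 to 17.4 in KO after DSS, and Zg16 had 11.5 to 18.4 and 7.06 to 8.49. On water, KO replicates 2 to 4 had 10.1 to 11.9 Fcgbp counts per 100 Muc2 counts and KO replicate 1 had 38.1, while WT ran from 13.5 to 55.2. Fcgbp and Zg16 moved together over the libraries, with 2.03 ± 0.55 (SD, n = 4) Fcgbp counts per Zg16 count in WT on water, 2.09 ± 0.61 (SD, n = 4) in KO on water, 2.29 ± 0.22 (SD, n = 3) in WT after DSS and 2.05 to 2.46 in the 3 KO libraries after DSS. Pearson's r of their log2 levels was 0.92 over the 14 libraries and 0.86 with group means removed. Between Muc2 and Fcgbp it was -0.12 and -0.35. These are descriptions, since the libraries fall into groups and share their total counts.

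**Figure D3:**
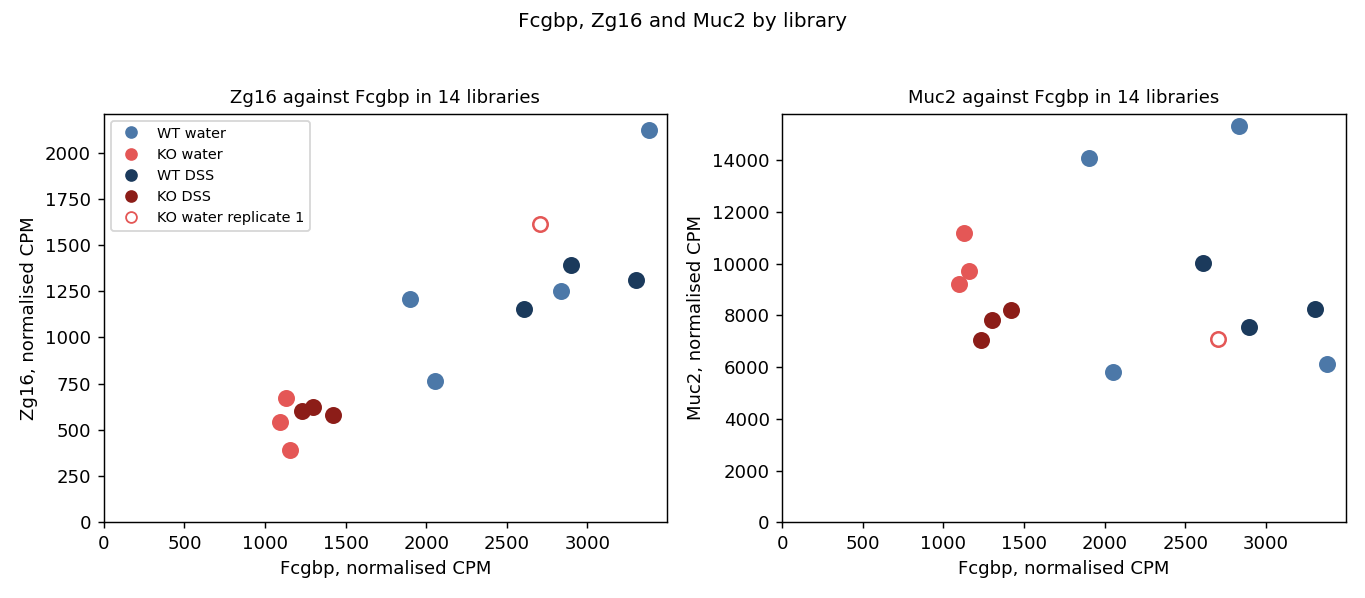
Normalised CPM of Zg16 (left) and Muc2 (right) against Fcgbp, 1 point per library, coloured by group, with KO water replicate 1 as an open circle. The 6 KO libraries other than that one lie at 1095 to 1420 CPM of Fcgbp and at most 670 CPM of Zg16, and their Muc2 spans 7062 to 11192 CPM.

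The third question was the response to DSS within a genotype. In WT, Spdef and Spink4 had the largest decreases of the 10 and neither was called by edgeR. Spdef was at 257, 94.3, 189 and 303 CPM on water and at 99.9, 107 and 103 after DSS, so that water replicate 2 lay below the DSS libraries and the other 3 above. Its log2 fold change was -1.03 (SE 0.31, edgeR adjusted p = 0.12), and DESeq2 called it (adjusted p = 0.026). Spink4 was at 1067, 1052, 1842 and 1974 CPM on water and 694, 1029 and 795 after DSS, with no overlap and a log2 fold change of -0.82 (SE 0.33, edgeR adjusted p = 0.18). The 2 highest Spink4 values on water came from WT replicates 3 and 4, the WT libraries with mitochondrial shares of 30.6% and 32.8%. With that share as a covariate the log2 fold change was -0.23 (edgeR adjusted p = 0.96) for Spink4 and -0.50 (edgeR adjusted p = 0.89) for Spdef. Spink4 was the only member whose DSS libraries lay wholly lower in WT, where 11.6% of tested genes did. Fcgbp, Zg16, Tff3, Muc2, Agr2 and Bcas1 ranged from -0.26 (Muc2) to 0.21 (Fcgbp) on the log2 scale in WT, and Atoh1 was at -0.36 (edgeR adjusted p = 0.27). Sycn had 144, 208, 149 and 215 CPM on water and 117, 444 and 384 after DSS, a log2 fold change of 0.82 (SE 0.55, edgeR adjusted p = 0.40) in the other direction, with 1 DSS library below and 2 above all water libraries. Its value was 0.49 without WT DSS replicate 2 and 1.49 with the mitochondrial share as a covariate.

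edgeR called 0 of the 10 in WT in response to DSS, and 0% of all genes, with 3174 genes at an unadjusted p below 0.05, while DESeq2 called 1, Spdef, beside 2.96% of all genes called lower and 851 genes in all. In KO it called 0 of the 10, beside 0.0661% of all genes (10 called, 1271 at an unadjusted p below 0.05, 70 by DESeq2). There Sycn had the largest difference, at 108, 230, 67.7 and 602 CPM on water and 84.9, 50.2 and 63.3 after DSS (log2 fold change -1.93, SE 0.60, edgeR adjusted p = 0.43). Without KO water replicate 4, the library at 602 and with a mitochondrial share of 21.4%, it was -1.03 (edgeR adjusted p = 0.37), and with that share as a covariate -1.22. The difference between the DSS responses of the genotypes was called for 0 of the 10, beside 0.00661% of all genes (1 called, 1135 at an unadjusted p below 0.05, 8 by DESeq2). It was -2.75 (SE 0.81, edgeR adjusted p = 0.64) on the log2 scale for Sycn, -1.86 without KO water replicate 4 (edgeR adjusted p = 0.15), and 1.00 (SE 0.43, edgeR adjusted p = 0.64) for Spdef. For Fcgbp it was -0.42 (95% interval -1.30 to 0.47) over all libraries and 0.02 (95% interval -0.60 to 0.64) without KO water replicate 1.

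Around the members, 4 wider lists of the goblet cell's machinery were counted. The list of mucin glycosylation and crosslinking stood out on water by calls in the higher direction, with 6 of 19 tested genes called higher in KO, 0 called lower and a median log2 fold change of 0.39, where 4.83% of all genes were called higher and the median of all genes was -0.01. The 6 were C1galt1, the synthase of the core 1 O-glycan (1.52, SE 0.31, edgeR adjusted p = 0.023), Gcnt4, a branching enzyme (1.24, edgeR adjusted p = 0.045), and Galnt5, Galnt3, Galnt7 and Galnt4, which start O-glycans on serine and threonine (0.90, 0.70, 0.69 and 0.55, edgeR adjusted p from 0.025 to 0.036). C1galt1 had 32.2 ± 7.93 CPM (SD, n = 4) in WT against 92.3 ± 47.9 (SD, n = 4) in KO, and Galnt7 had 166 ± 30.9 and 268 ± 44.3. Without KO water replicate 1, 5 of the 6 were called, all but Galnt5, beside 4.06% of all genes called higher. The number called was 0 without WT water replicate 4, KO water replicate 2 or KO water replicate 3, 2 without WT water replicate 3, 3 without KO DSS replicate 3, and 0 with the mitochondrial share as a covariate or in models of only the groups compared. The list's median in those models was 0.44, 0.36, 0.31, 0.30, 0.39, 0.28, 0.39 and 0.45, in this order, the last without KO water replicate 1, with 13 or 14 of the 19 above 0. After DSS 0 of the 19 were called and the median was 0.19. From water to DSS the list's median was 0.28 in WT, with 14 of the 19 above 0 and 0 called by edgeR. DESeq2 called C1galt1 higher there, beside 2.66% of all genes called higher. In KO that median was 0.03, with 12 of the 19 above 0 and 0 called. St6galnac6 and B3gnt7, the list's most abundant genes, were at -0.08 and -0.28 on water (edgeR adjusted p = 0.75 and 0.55).

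**Figure D4:**
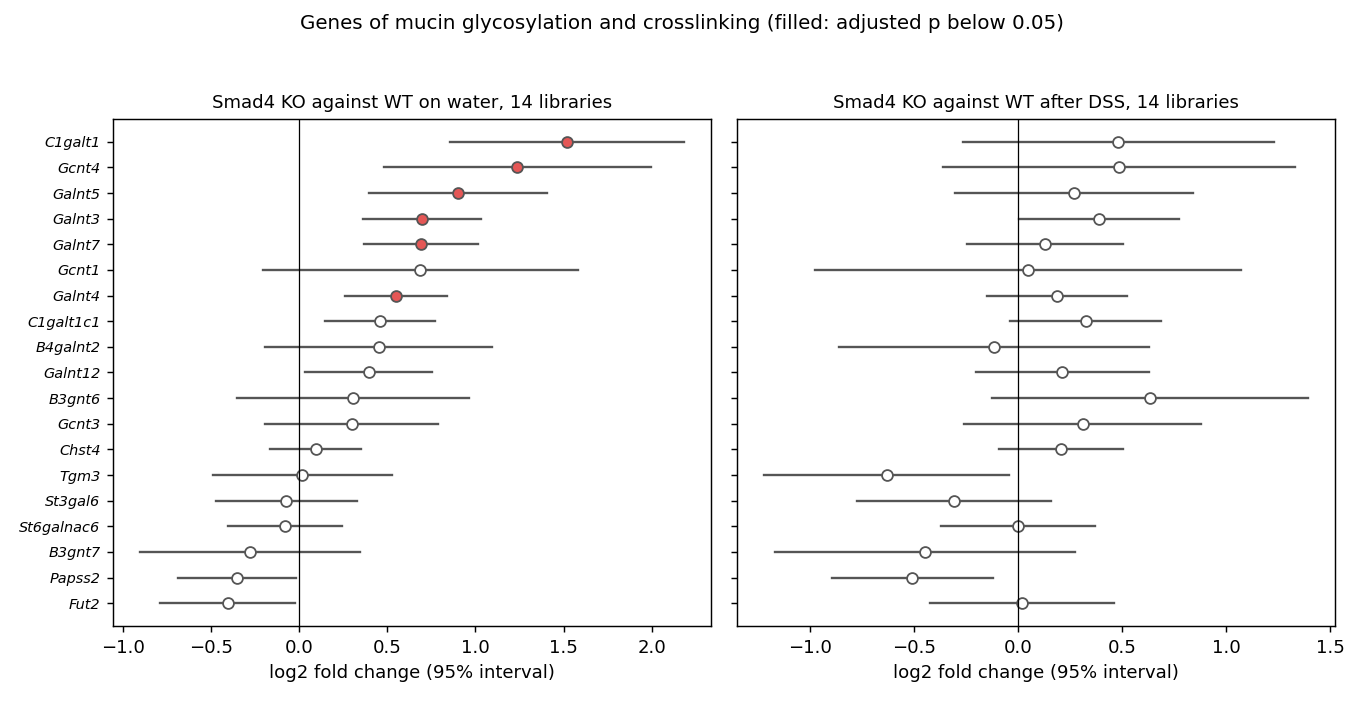
Log2 fold change of KO against WT (points, with 95% intervals) for the 19 tested genes of mucin glycosylation and crosslinking, on water (left) and after DSS (right), from the model of 14 libraries. Filled points have an edgeR adjusted p below 0.05, 6 on water and 0 after DSS.

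Of 12 further secreted products tested, 10 were below 0 on water (median -0.57 on the log2 scale), and 1 was called lower, beside 3.6% of all tested genes (545 genes). The median was -0.08, with 6 of 12 above 0, without WT water replicate 4, and -0.24, with 5 of 12 above 0, with the mitochondrial share as a covariate. The 1 called was Reg4, a secreted C-type lectin, at 375 ± 49.0 CPM (SD, n = 4) in WT against 150 ± 58.7 (SD, n = 4) in KO (-1.32, SE 0.36, edgeR adjusted p = 0.039). Reg4 was not called without WT water replicate 1, 3 or 4, KO water replicate 2 or 3, WT DSS replicate 1 or 2 or KO DSS replicate 3, with the covariate, or in the model of only the groups compared. Wfdc2, a secreted protease inhibitor of the whey acidic protein family, was called as well without KO water replicate 1 (-0.84, edgeR adjusted p = 0.0498). Reg4 was not called after DSS (-0.17, edgeR adjusted p = 0.999), where WT itself was at 134 ± 53.7 CPM (SD, n = 3). Clca1, a metalloprotease that remodels mucus and the list's most abundant gene, had 1180, 1458, 1443 and 1592 CPM in WT and 1495, 1171, 659 and 767 in KO on water, and 1181, 1977 and 2395 in WT and 1117, 704 and 593 in KO after DSS. Its groups overlapped on water and not after DSS, with log2 fold changes of -0.47 (edgeR adjusted p = 0.26) and -1.20 (edgeR adjusted p = 0.47, and 0.10 in the 6 DSS libraries), and DESeq2 called it after DSS (adjusted p = 0.044). Klk1, a secreted kallikrein and the next most abundant, was at -0.50 on water (edgeR adjusted p = 0.20) and at -0.22 under DSS.

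Of 18 genes of folding and export, 0 were called in the 14 libraries under either condition, and 9 were above 0 on water and 8 after DSS. After DSS other models called Capn9, a calpain of the digestive tract. It was at 39.7 ± 2.06 CPM (SD, n = 3) in WT against 20.3 ± 2.78 (SD, n = 3) in KO after DSS, a log2 fold change of -0.96 (edgeR adjusted p = 0.21 in the 14 libraries and 0.010 in the 6, DESeq2 adjusted p = 0.0056). Capn9 on water was at -0.49 (edgeR adjusted p = 0.077), and at -0.63 (edgeR adjusted p = 0.044) without KO replicate 1. On water DESeq2 also called Stxbp2 and Capn9 lower, beside 7.99% of all genes called lower. The replicate block called Vamp8, Stxbp2 and Capn9 lower, where it called 2977 of all 15127 tested genes in either direction. The prefix block called Stxbp2 lower and Pdia5 higher, where it called 2030 genes. The model without KO replicate 4 called Vamp8 and Stxbp2, where it called 4104 genes. Creb3l1 and Nlrp6, the most abundant of this list, were at -0.08 and -0.06 on water (edgeR adjusted p = 0.77 and 0.80). Of 13 regulators of the secretory lineage, 0 were called in either comparison in the 14 or 13 libraries, with medians of -0.15 on water and 0.02 after DSS. Elf3 and Klf4, the most abundant, were at 0.00 and -0.16 on water (edgeR adjusted p = 0.99 and 0.69).

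The genes whose log2 level followed the mean standardised level of the 10 most closely over the 14 libraries were Ndufs3, Aven, Timm17b, Oaz2, Tppp3, Nat14, Prrg2, Dexi, Ppp2r5a and Efcab4a. Pearson's r ran from 0.94 for Ndufs3 to 0.90 for Efcab4a, and from 0.82 to 0.94 once group means were removed, so the likeness did not come from the group means alone.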

How the data were processed

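Colon epithelium RNA was sequenced after polyA enrichment, with replicates labelled as separate samples, taken as separate mice. The authors aligned reads to mm9 with Hisat2 and counted them on genes with featureCounts, and the deposited values are whole-number counts without normalization. The annotation and the strand setting are not given in the sources used here, so reads of Fcgbp and Bcas1 cannot be told from those of predicted genes on the opposite strand that overlap them. Positions and lengths come from GENCODE M1. The symbol Clca1 was assigned to the gene this release calls Clca3, by its RefSeq synonyms.

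Genes reaching 10 counts in 3 or more libraries (15127, or 15074 in the set of 13) entered the quasi-likelihood test of edgeR 4.0.16 after TMM scaling, two-sided, in 1 model of the 4 group means, with Benjamini-Hochberg adjustment over all tested genes and a threshold of 0.05. Fold changes and intervals are from that model, and CPM is normalised by TMM. Likeness used log2 values with a prior count of 2. The alternatives were DESeq2 1.42.0, RLE scaling, no filter, mitochondrial genes left out, the groups compared alone, blocks of replicate number and name prefix, robust spread, the mitochondrial share as a covariate and each library left out. The script was tested on simulated counts. No 2 libraries of a group agreed within sampling noise. R 4.3.3 was used.

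The members, the lists and the tests were chosen with earlier results of these data known. Named were the 10 members, Smad4, every gene of the 4 goblet lists called in the 14- or 13-library model, the 2 most abundant genes of each list, and the 10 of most similar pattern. Stxbp2, Vamp8 and Pdia5, which only other models called, were named as well, as were some cell type markers. Calls of other models were not named for every list and comparison.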

Additional observations from a re-analysis of the deposited data

Results flagged for a closer look

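In 22 groups of 4 libraries (10 goblet cell genes and Smad4, on water), 2 held a library whose gap to the nearest other was over Dixon's 95% critical value as a share of the group's range, which chance alone exceeds in about 1 group of 20. Both were KO water replicate 1. Its Smad4 was 158 CPM, where the nearest other KO library on water had 46.8, a gap of 0.905 of the range. Its Fcgbp was 2704 CPM, where the nearest other had 1159, a gap of 0.960 of the range.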

How the results depend on the processing

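Of 1180 fold changes of the 10 genes under alternatives, 53 changed sign and 13 passed the threshold that the reported model missed. The cause was not tested. The largest reported value among those that changed sign was 0.50 (log2). With the fits of each library left out in turn set aside it was 0.42, for Zg16 in the DSS response of KO. That sign changed in the model of only the groups compared that also left out KO water replicate 1. In KO against WT, every member but Muc2 and Sycn on water, and every member but Spink4 after DSS, kept its direction under all 24 alternatives.

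On water, KO against WT called 1276 genes as reported, 2659 with DESeq2, 1 with only the groups compared, 13 with these and KO replicates 2 to 4, 2977 with the replicate block, 2030 with the prefix block, 81 with the mitochondrial share and 4 to 4104 with 1 library left out, without WT replicate 4 and KO replicate 4. Members called there were 2 with DESeq2, 1 with the replicate block (Tff3, -0.60, adjusted p = 0.045) and 0 to 3 with 1 library left out. After DSS, KO against WT called 2 genes as reported, 51 with DESeq2, 7 without the filter, 113 with only the groups compared, 4 with the mitochondrial share, 20 with the prefix D libraries (added later) and 0 to 8 with 1 left out. Members called there were 1 with DESeq2 and 3 with only the groups compared.

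DSS against water in WT called 0 genes as reported, 851 with DESeq2, 138 without the filter, 1 with the prefix block, 40 with the prefix D libraries and 0 to 537 with 1 left out, and 1 member with DESeq2. In KO it called 10 as reported, 70 with DESeq2, 1 with only the groups compared, with or without KO water replicate 1, 6 with the replicate block, 1 with the prefix block, 6 with the mitochondrial share and 3 to 11 with 1 left out. The difference of the responses was called for 1 gene as reported, 8 with DESeq2, 2 without the filter and 1 to 6 with 1 left out.

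Changed signs in the DSS response of WT (log2) were Fcgbp at -0.0576 with the mitochondrial share, and Agr2 at 0.0013 without the filter, 0.0937 with the replicate block and 0.11 with the mitochondrial share. In KO they were Tff3 at 0.063, Fcgbp at 0.23 and Zg16 at 0.17 with only the groups compared and KO replicates 2 to 4, Tff3 at 0.0352 with the replicate block, Spink4 at 0.33 and Spdef at 0.32 with the prefix block, Spink4 at 0.14 and Spdef at 0.27 with the mitochondrial share, and Spdef at 0.22 with the replicate block. In the difference of the responses Tff3 was at -0.0853 with the prefix block. With 1 library left out, KO against WT ran from -0.34 to 0.10 for Muc2 and -0.39 to 0.81 for Sycn on water and from -0.10 to 0.25 for Spink4 after DSS. The DSS response of WT ran from -0.24 to 0.27 for Zg16, -0.10 to 0.10 for Agr2 and -0.0796 to 0.0774 for Bcas1. That of KO ran from -0.27 to 0.0632 for Tff3, -0.34 to 0.22 for Fcgbp, -0.65 to 0.17 for Zg16, -0.0011 to 0.34 for Agr2, -0.37 to 0.0357 for Spink4 and -0.18 to 0.21 for Spdef. The difference of the responses ran from -0.26 to 0.18 for Muc2, -0.15 to 0.21 for Tff3, -0.59 to 0.0166 for Fcgbp, -0.68 to 0.22 for Zg16 and -0.063 to 0.25 for Atoh1.

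Replicate numbers are shared across groups. Of 19 pairs of libraries with the same number, 2 had correlated deviations above 0.1 (range -0.08 to 0.35), and 3 of 14 libraries correlated best with their own number, so the numbers were not taken as pairs.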
